A study of Bos taurus with 28 samples.

Results

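The array carried 97 genes of the cell cycle and of DNA replication among its 8073 named genes, and their RNA was compared in liver between ketotic and healthy dairy cows. The genes were chosen by symbol in the platform annotation, with earlier results of these data known. The rule itself held no measured value. It took PCNA, TYMS, TOP2A, RRM1, RRM2 and LIG1, and whole gene families. The families were cyclins, CDKs, CDK inhibitors (CDKN), E2F, MCM, ORC, GINS and CDC (without CDC42). Further families were the replicative polymerases (POLA, POLD, POLE), RFC, RPA, AURK, BUB and CENP. No probe was named MKI67, and CDKN1C was named only on a probe with several symbols, so neither was analysed here. Of the 97 genes, 82 had a value in at least 5 cows of each group and were tested.

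The cows were 14 multiparous Holsteins, found healthy on day 4 after calving and assigned at random to their groups. The 7 ketotic cows had ketosis induced by feed restriction: their feed was cut to 50% of what they had eaten before, until clinical signs or day 14, starting on day 5 in the series' design text and on day 4 in the sample labels. The 7 healthy cows were the controls. RNA of whole liver was hybridised on 28 cDNA arrays beside a common reference of cattle tissues, 2 for each cow, in which liver and reference swapped dyes. Values are log2 ratios of liver over reference with the median of each array set to 0, and the 2 arrays of a cow were averaged. Where lowest, median and highest values are given, n is 7 cows per group unless stated. Tested genes given without these values had 5 to 7 cows per group. The direction of the ratio, with Cy5 on top in the deposited values, is likely rather than given: after turning, the median of 16 hepatocyte markers was above 0 on 28 of 28 arrays, with 2.75 the lowest.

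A cell that divides copies its genome in S phase and separates the copies in mitosis. Cyclins bound to cyclin-dependent kinases (CDKs) drive these steps, CDK inhibitors restrain them, and E2F factors switch on the genes that S phase needs. Origin recognition (ORC) proteins load the MCM helicase on DNA, GINS and CDC45 activate it, and polymerases held by the sliding clamp PCNA copy the opened strands. Adult hepatocytes are mostly at rest, and several of the genes below also serve DNA repair or transcription in cells that do not divide.

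Of the 14 cows, 1 stood apart. Healthy cow 7 correlated across genes with the other healthy cows at a median r of 0.467, while the median r of the healthy group was 0.927 and the lowest among ketotic cows was 0.893. Its hepatocyte markers averaged 3.51 on the log2 scale, the lowest of the healthy cows, and its stellate cell and fibroblast markers 0.31, the highest. Missing values differed by group as well: the share of spots without a ratio was 16.5% ± 4.49 in ketotic and 11.9% ± 2.80 in healthy cows, and the spread of the log2 ratios (median absolute deviation) was 1.40 ± 0.185 in ketotic and 1.12 ± 0.128 in healthy cows (SD, n = 7 each). The part of these differences in the results below was not tested, and the counts are given with and without healthy cow 7.

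Ketotic livers had less RNA of 10 of the 82 tested genes and more of 1 (limma, Benjamini-Hochberg adjusted over 6958 genes, threshold 0.05). The genes that fell were PCNA, RPA3, POLE3, POLE4 and GINS1 of the replication machinery, TYMS of nucleotide synthesis, CCNG1 and CDK4 among cyclins and kinases, and CENPS and CENPX of the centromere. CENPF, a kinetochore protein of dividing cells, rose. In whole tissue, fewer cells of a type and less RNA per cell cannot be told apart.

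These counts were close to those of the array as a whole. The 11 genes that passed were 13.4% of those tested, and 929 genes, 13.4% of all genes, passed. The 10 that fell were 12.2%, against 12.4% of all genes, and 0.92% of all genes rose. The median log2 difference (ketotic minus healthy) was -0.22 over the 82 genes and -0.18 over all genes, with 60 of the 82 below 0 and 46 below the median of all genes. Cow values of the groups did not overlap for 2 genes (2.44%), PCNA and POLE3, while they did not overlap for 5.71% of all genes. Without healthy cow 7, 14 of 82 genes passed (12 lower, 2 higher), and 19.9% of all genes passed. The 14 included all 11 and added MCM3, RFC2 and CENPI. The median was then -0.13 over the 82 genes and -0.19 over all genes, so that the set no longer lay below the array. Without ketotic cow 4, 7 of 78 passed, beside 775 of all 6631 genes. This was the fewest of the set among the 14 fits that each left out 1 cow.

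**Figure D1:**
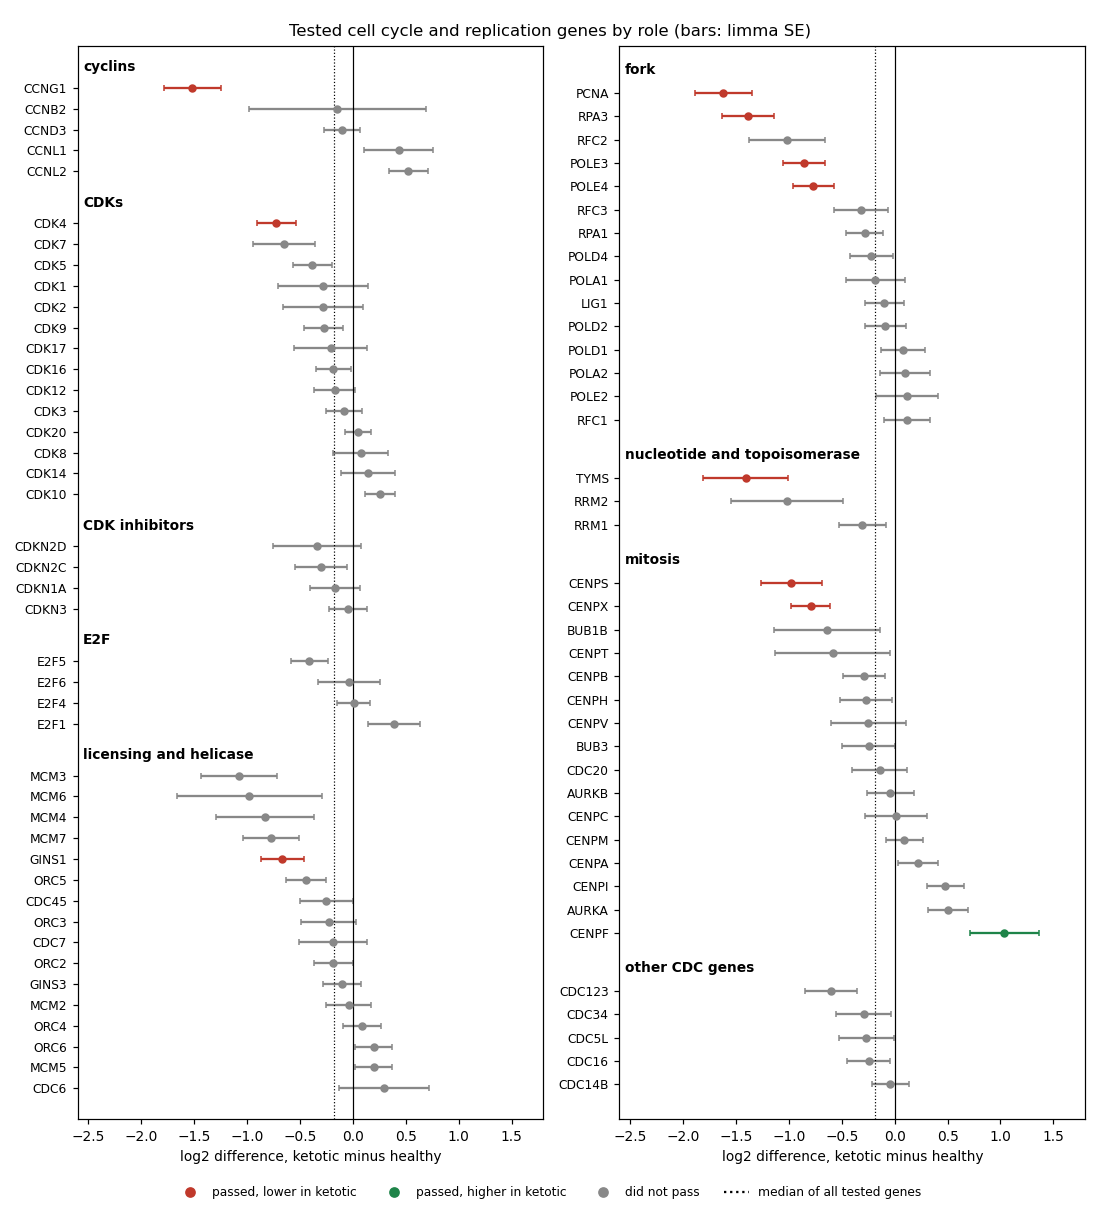
Log2 difference (ketotic minus healthy) of each of the 82 tested genes, grouped by role, with bars for the limma standard error. Red points passed and were lower in ketotic cows, the green point (CENPF) passed and was higher, grey points did not pass, and the dotted line marks the median of all genes, -0.18; most grey points lie around that line.

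The replication fork held 4 of the 10 genes that fell, among 15 tested (median difference -0.22). Beside this count and those of the roles below, 12.4% of all genes fell, with a median of -0.18 over all genes. PCNA, the ring that holds polymerases on DNA, had values of -4.81, -3.53 and -3.09 (lowest, median and highest) in ketotic cows, against -2.92, -2.16 and -1.90 in healthy cows. Every ketotic cow was below every healthy cow. PCNA was 3.07-fold lower in ketotic cows (log2 difference -1.62, SE 0.271, adjusted p = 0.00314 by limma), the widest difference among the 82 genes. RPA3, the smallest subunit of the complex that coats single-stranded DNA, had -3.26, -2.90 and -1.75 in ketotic cows, against -2.07, -1.41 and -0.90 in healthy cows. Of the ketotic cows, 6 lay below the lowest healthy cow, and ketotic cow 3 lay among the healthy ones. RPA3 was 2.61-fold lower (log2 difference -1.39, SE 0.243, adjusted p = 0.00361). Its partner RPA1 had a difference of -0.28 and did not pass.

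POLE3 and POLE4 encode the small histone-fold subunits of DNA polymerase epsilon, which copies the leading strand, and they bind each other. POLE3 had -2.24, -1.50 and -1.07 in ketotic cows, against -0.91, -0.79 and -0.34 in healthy cows, without overlap. It was 1.81-fold lower (log2 difference -0.86, SE 0.195, adjusted p = 0.0120 by limma). POLE4 had -3.07, -2.42 and -2.30 in ketotic cows, against -2.31, -1.84 and -1.24 in healthy cows. The groups met only at their edge, with 6 ketotic cows below the lowest healthy cow, and POLE4 was 1.70-fold lower (log2 difference -0.77, SE 0.192, adjusted p = 0.0185). The other tested subunit of this polymerase, POLE2, had a difference of 0.12 and did not pass, and the tested subunits of polymerases alpha and delta lay between -0.22 (POLD4) and 0.100 (POLA2).

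RFC2 is a subunit of the clamp loader that opens PCNA. Its values were -3.41, -2.68 and -2.12 in ketotic cows, against -2.24, -2.08 and 0.37 in healthy cows, the last being healthy cow 7. With all cows RFC2 did not pass (log2 difference -1.02, adjusted p = 0.0738), and without healthy cow 7 it did, at a smaller difference (-0.67, adjusted p = 0.0291 by limma). RFC1 at 0.12 and RFC3 at -0.32, other subunits of the loader, did not pass, nor did LIG1, which seals the lagging strand, at -0.098.

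**Figure D2:**
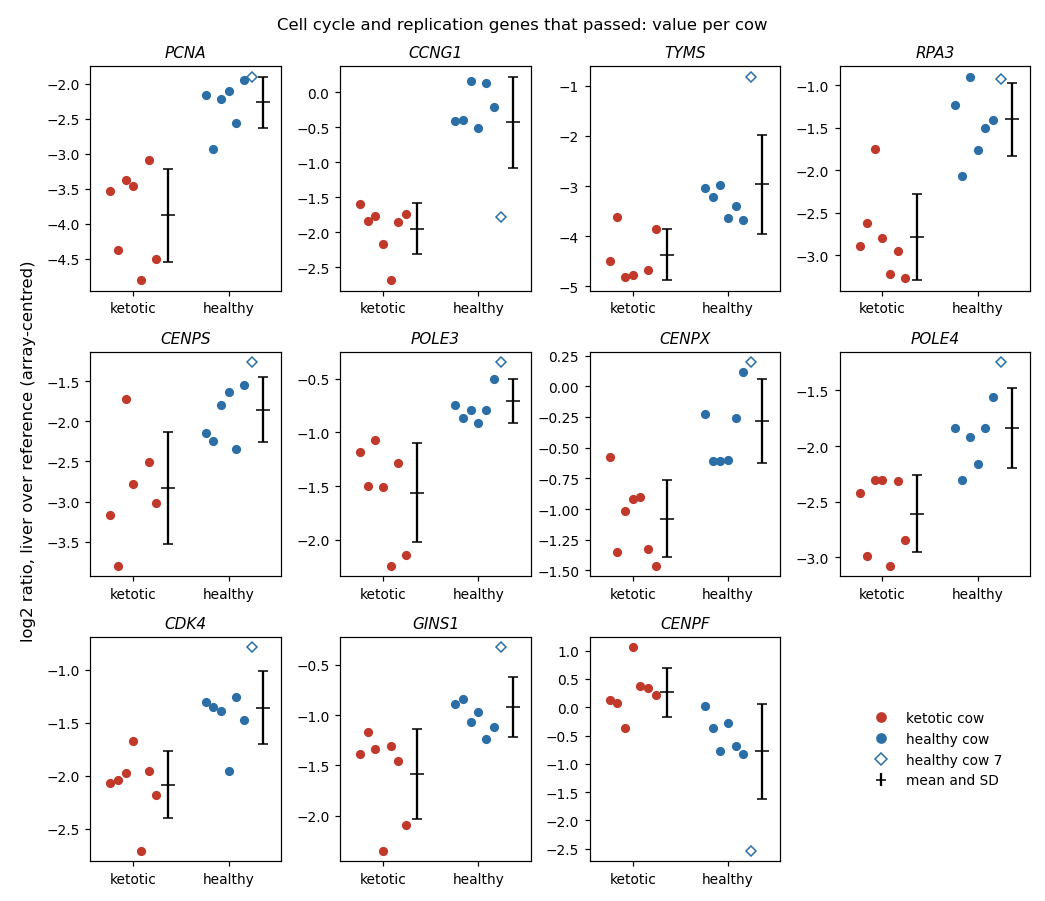
Log2 ratio of liver over reference in each ketotic (left, red) and healthy (right, blue) cow for the 11 genes that passed, with the mean and SD of each group; the open diamond is healthy cow 7. PCNA and POLE3 separate without overlap, and healthy cow 7 lies apart from its group for TYMS, CCNG1 and CENPF.

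Of the 16 tested genes of origin licensing and the helicase, GINS1 fell and 15 did not pass (median difference -0.21). GINS1, a subunit of the complex that activates the helicase, had -2.35, -1.38 and -1.17 in ketotic cows, against -1.24, -0.97 and -0.32 in healthy cows. It was 1.59-fold lower (log2 difference -0.67, SE 0.205, adjusted p = 0.0432 by limma). The call was lost when ketotic cow 4 or 7 or healthy cow 1, 2, 3, 4 or 6 was left out, with adjusted p between 0.0398 and 0.0869 and a difference between -0.73 and -0.54 over the 14 fits. Its 2 probes differed by -0.67 and -0.58, and neither passed in a fit over probes.

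The 6 subunits of the MCM2 to MCM7 ring did not move alike, and none passed with all cows. MCM3 had -4.74, -4.16 and -3.79 in 6 ketotic cows, against -4.12, -3.25 and -1.37 in 7 healthy cows, of which healthy cow 7 was the highest. Its difference of -1.08 (SE 0.358) missed the threshold with all cows (adjusted p = 0.0600) and passed without healthy cow 7 (-0.78, adjusted p = 0.0286) or healthy cow 3 (-1.24, adjusted p = 0.0402). MCM6 ran from -5.78 to -2.80 with a median of -3.23 in ketotic cows. In healthy cows it ran from -5.33 to 0.051, and the median of -2.67 lay above every ketotic cow. The lower part of the ranges overlapped, and MCM6 did not pass (difference -0.98, SE 0.688, adjusted p = 0.379 by limma). MCM7 differed by -0.77 (adjusted p = 0.0654) and MCM4 by -0.83 (adjusted p = 0.258), the second shrinking to -0.34 without healthy cow 7. MCM7 passed only without healthy cow 4 (-0.89, adjusted p = 0.0404) among the fits that left out 1 cow. MCM2 and MCM5 differed by -0.041 and 0.20. The ORC subunits lay between -0.44 (ORC5) and 0.20 (ORC6), and CDC6, which loads the helicase with them, was at 0.29.

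**Figure D3:**
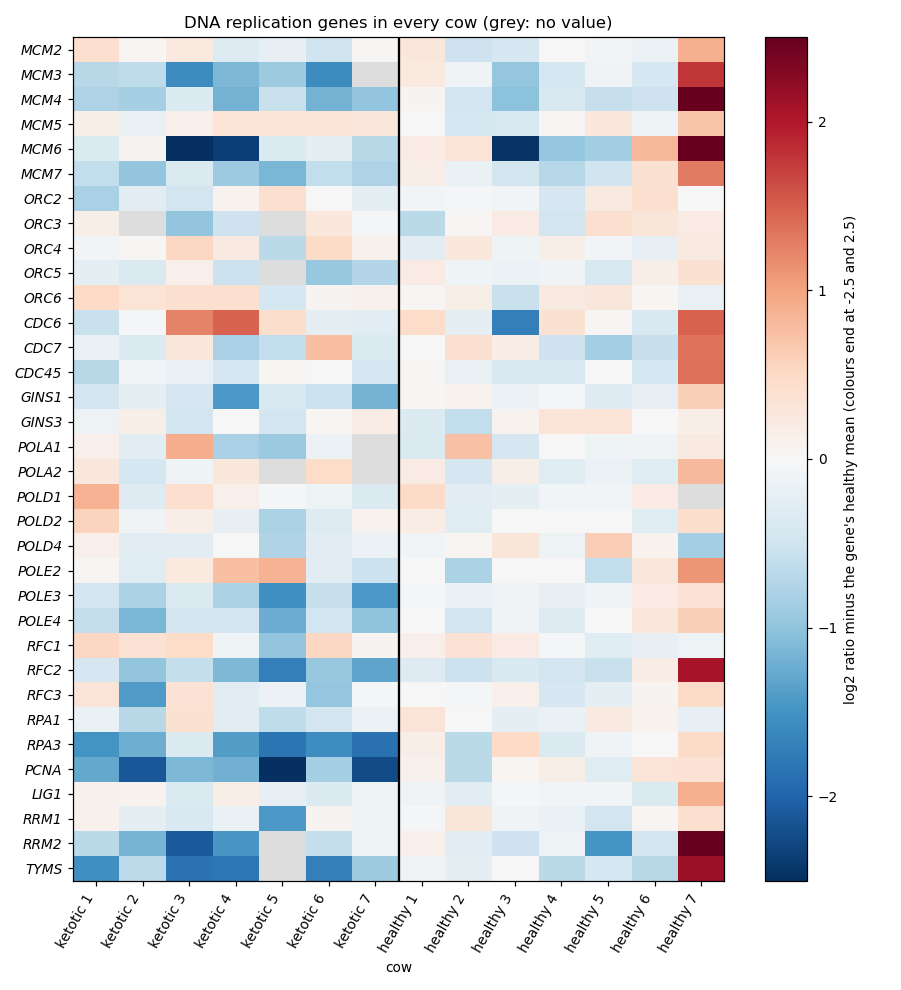
Log2 ratio of DNA replication genes in each cow, ketotic left of healthy, after subtracting the mean of the gene's healthy cows (blue lower, red higher, grey no value). PCNA, RPA3 and TYMS are blue across nearly all ketotic cows, and healthy cow 7 is red for MCM3, MCM4, MCM6, RFC2, RRM2 and TYMS.

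Of the genes that supply nucleotides, TYMS, the thymidylate synthase that makes the thymidine precursor of DNA, had -4.81, -4.59 and -3.62 in 6 ketotic cows, against -3.67, -3.21 and -0.82 in 7 healthy cows. Healthy cow 7 was the highest, and 5 of the 6 ketotic cows lay below the lowest healthy cow. TYMS was 2.65-fold lower (log2 difference -1.41, SE 0.403, adjusted p = 0.0336 by limma). Without healthy cow 7 the difference was -1.05 (adjusted p = 0.00678), and the call was lost when ketotic cow 1, 3, 4 or 6 or healthy cow 1 or 3 was left out (highest adjusted p 0.0623). RRM2, the S-phase subunit of ribonucleotide reductase, had -5.86, -4.68 and -3.88 in 6 ketotic cows, against -5.24, -4.04 and -1.02 in 7 healthy cows. Its difference of -1.02 (SE 0.532, adjusted p = 0.228) did not pass. RRM1, the large subunit, had -2.70, -1.43 and -1.17 in ketotic cows, against -1.72, -1.31 and -0.87 in healthy cows (difference -0.31, SE 0.222, adjusted p = 0.395). TOP2A, the topoisomerase that untangles finished chromosomes, had a value in 4 ketotic and 7 healthy cows and was not tested.

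Among the 5 tested cyclins CCNG1 fell. This cyclin is a transcriptional target of p53 and is not a driver of the phases of the cycle. It had -2.69, -1.84 and -1.60 in ketotic cows, against -1.79, -0.39 and 0.16 in healthy cows. The lowest healthy value was that of healthy cow 7; the other healthy cows lay at -0.51 or above, higher than every ketotic cow. CCNG1 was 2.86-fold lower (log2 difference -1.52, SE 0.268, adjusted p = 0.00383 by limma), and the difference without healthy cow 7 was -1.74 (adjusted p = 0.000437). CCNL2, a cyclin of the splicing machinery, had -0.72, 0.076 and 0.35 in ketotic cows, against -0.96, -0.59 and -0.13 in healthy cows, and its difference of 0.52 (SE 0.183) missed the threshold (adjusted p = 0.0728) and passed without ketotic cow 7 (0.64, adjusted p = 0.0251). CCND3 at -0.100 and CCNB2, a mitotic cyclin, at -0.15 did not pass.

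Of 14 tested CDKs, CDK4 fell. CDK4 binds D-type cyclins and starts the passage from G1 to S phase. Its values were -2.71, -2.04 and -1.67 in ketotic cows, against -1.96, -1.36 and -0.79 in healthy cows, with 6 ketotic cows below the lowest healthy cow. It was 1.65-fold lower (log2 difference -0.72, SE 0.184, adjusted p = 0.0195 by limma). CDK7, the kinase that activates other CDKs and serves transcription, had -2.03, -1.21 and -0.53 in 6 ketotic cows, against -1.16, -0.84 and 0.37 in 7 healthy cows (difference -0.66, SE 0.293, adjusted p = 0.158). CDK1 and CDK2, the kinases of mitosis and S phase, each differed by -0.28 with adjusted p of 0.717 and 0.682. For CDK1, with 6 cows in each group, ketotic cow 5 was at -1.20 and the next highest ketotic cow at -3.29.

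None of the 4 tested CDK inhibitors passed. CDKN2D, an inhibitor of CDK4, had a difference of -0.34 (SE 0.415) and CDKN2C, of the same family, -0.30 (SE 0.247), and CDKN2D turned to 0.047 without healthy cow 7. The 2 probes of CDKN2C disagreed, at 0.10 and -0.71. CDKN1A, the p53-induced inhibitor p21, had -0.76, -0.59 and 0.51 in ketotic cows, against -0.67, -0.46 and 0.71 in healthy cows, which overlapped almost wholly (difference -0.17, SE 0.234, adjusted p = 0.691). Among 4 E2F genes, E2F5, a repressor of the family, was at -0.41 (SE 0.176, adjusted p = 0.135) and E2F1, an activator, at 0.39 (SE 0.249, adjusted p = 0.331), neither of which passed.

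Of the 16 tested genes of mitosis, 2 fell and 1 rose (median difference -0.19). CENPS and CENPX encode a pair of histone-fold proteins that bind each other, sit at the centromere and also serve in DNA repair at stalled forks. CENPX had -1.46, -1.01 and -0.58 in ketotic cows, against -0.61, -0.26 and 0.20 in healthy cows, with 6 ketotic cows below the lowest healthy cow. It was 1.73-fold lower (log2 difference -0.79, SE 0.184, adjusted p = 0.0127 by limma). CENPS had -3.80, -2.90 and -1.72 in 6 ketotic cows, against -2.35, -1.80 and -1.26 in 7 healthy cows. Its highest ketotic cow lay among the healthy ones and the other ketotic cows below all of them. CENPS was 1.97-fold lower (log2 difference -0.98, SE 0.290, adjusted p = 0.0387), a call lost when ketotic cow 1, 2, 4 or 7 or healthy cow 1, 3, 4 or 6 was left out (highest adjusted p 0.0759).

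CENPF had -0.37, 0.21 and 1.06 in ketotic cows, against -2.54, -0.69 and 0.028 in healthy cows. Healthy cow 7 was the lowest, and 6 ketotic cows lay above the highest healthy cow. It was 2.05-fold higher in ketotic cows (log2 difference 1.04, SE 0.327, adjusted p = 0.0474 by limma), and without healthy cow 7 the difference was 0.74 (adjusted p = 0.0230). The call was lost when ketotic cow 1, 2, 4, 5, 6 or 7 or healthy cow 2, 3, 5 or 6 was left out (highest adjusted p 0.0886). CENPI, a protein of the inner kinetochore, was at 0.48 (adjusted p = 0.0814) and passed without healthy cow 7 (0.57, adjusted p = 0.0215) or ketotic cow 6 (0.56, adjusted p = 0.0392). AURKA, a kinase of the spindle poles, was at 0.50 (adjusted p = 0.0885), AURKB, the kinase of the chromosomal passenger complex, at -0.040, CDC20, an activator of the anaphase-promoting complex, at -0.14 and BUB1B, of the spindle checkpoint, at -0.64; none of these passed.

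The 5 tested CDC genes outside these roles did not pass. CDC123, an assembly factor for the translation initiation factor eIF2, had -1.80, -0.52 and -0.015 in ketotic cows, against -0.36, -0.075 and 0.36 in 6 healthy cows (difference -0.60, SE 0.246, adjusted p = 0.121). CDC34, a ubiquitin-conjugating enzyme, was at -0.29.

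The 15 genes that could not be tested hold many of the markers of dividing cells: the cyclins CCNA1, CCNA2, CCNB1, CCNE1 and CCNE2, the mitotic genes BUB1, CENPE, CENPJ and CDC25C, TOP2A, RFC4, CDKN1B, CDC23, CDC26 and CDC40. A value was present in fewer ketotic than healthy cows for 12 of them and in fewer healthy cows for 3 (CCNA1, CCNE1 and CDKN1B). CCNB1, the main mitotic cyclin, had a value in 3 ketotic and 6 healthy cows, CCNA2 in 4 ketotic and 6 healthy cows, and BUB1 in 4 ketotic and 6 healthy cows. As the share of empty spots was higher in ketotic cows over the whole array, these counts do not stand for a level.

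How far the calls held under other ways of processing differed among the 11 genes. RPA3 kept its call in all 31 alternatives, and PCNA and CCNG1 in 30, losing it only when the arrays with liver in Cy5 were used alone (adjusted p = 0.0632 and 0.0561 by limma). POLE3 kept its call in 29, CENPX in 28, POLE4 in 26 and CDK4 in 25 of 31. TYMS kept its call in 16 of 30, CENPS in 12 of 30, and GINS1 and CENPF in 12 of 31. With liver in Cy3 alone CENPS differed by -0.39 and GINS1 by -0.41, and with liver in Cy5 alone by -1.30 and -1.01. Neither gene passed with 1 dye alone. The sign of all 11 differences was the same in every alternative, but their sizes changed. With all arrays scaled to the same spread, the genes that fell lay between -1.23 (CCNG1) and -0.28 (POLE4). PCNA was then at -0.92, RPA3 at -0.93 and CDK4 at -0.36, and CENPF was at 1.13. With a term for each cow's percentage of empty spots, 4 of the 11 passed: CCNG1 (-1.50), PCNA (-1.34), RPA3 (-1.17) and CENPX (-0.92). Relative to the median gene of each cow, PCNA (-1.41), CCNG1 (-1.31), RPA3 (-1.18) and POLE3 (-0.65) passed as lower, and CENPF (1.24), CCNL2 (0.73), AURKA (0.71) and CENPI (0.68) as higher.

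**Figure D4:**
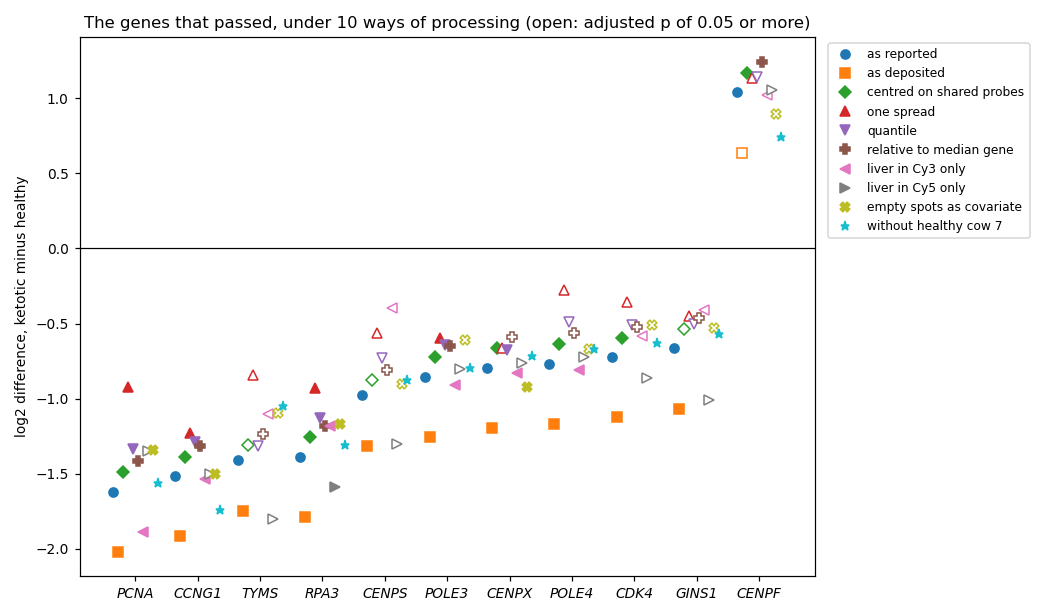
Log2 difference (ketotic minus healthy) of the 11 genes that passed, under 10 ways of processing marked by colour and shape; filled symbols had an adjusted p under 0.05 and open symbols did not. RPA3 stays filled throughout, PCNA and CCNG1 are open only for liver in Cy5, and CENPS, TYMS, GINS1 and CENPF are open in most.

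Genes that work with these were counted in 8 lists, of which 143 other genes were tested. Of these, 26 fell (18.2%) and none rose, against 12.4% and 0.92% of all genes, and the median difference was -0.30. Without healthy cow 7, 28 fell and 1 rose of 142. In that fit 1265 of all 6878 genes fell and 103 rose, 19.9% in either direction. Nucleotide synthesis had 4 of 17 genes lower. They included NME2, a nucleoside diphosphate kinase (log2 difference -1.24, adjusted p = 0.00380 by limma), GART, of purine synthesis (-0.62, adjusted p = 0.00790), TK1, the S-phase thymidine kinase (-1.62, adjusted p = 0.0194), and UMPS, of pyrimidine synthesis (-0.62, adjusted p = 0.0262). DNA repair had 6 of 19 lower, among them PARP1, a sensor of strand breaks (-1.05), XRCC6, the Ku70 end-binding protein (-0.62), APEX1, the abasic site endonuclease (-0.79), and UNG, which removes uracil from DNA (-1.10).

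In the list of cyclin-CDK regulators and E2F partners 4 of 17 were lower: CKS2, a small CDK-binding protein (-1.39), CCNI (-0.74), CDK2AP1 (-0.61) and TFDP2, a partner of E2F (-0.66). Other fork and primase genes had 3 of 17 lower, namely the histone chaperone RBBP7 (-0.95), SSRP1 (-0.75), a subunit of the FACT chaperone, and RNASEH2C (-0.71), of an enzyme that removes ribonucleotides from DNA. The anaphase-promoting complex had 2 of 12 lower, ANAPC11 (-0.91) and ANAPC4 (-0.78). Spindle and chromosome genes had 2 of 25 lower, the histone variant H2AZ1 (-1.43) and the cohesin subunit RAD21 (-0.60). The p53 and checkpoint list had 2 of 16 lower, BTG1 (-0.64), an antiproliferative gene whose call was lost without healthy cow 7 (adjusted p = 0.0509), and TOPBP1 (-0.62). Growth signalling had 3 of 21 lower, SMAD2 (-0.85), CTNNB1 (-0.72) and NRAS (-0.74).

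Some markers of liver cell types also passed, where 12.4% of all genes fell and 0.92% rose. Of 8 macrophage markers, 3 fell (CD74, LAPTM5 and AIF1), and the mean of the list ran from 0.81 to 2.17 in ketotic cows and from 0.88 to 3.22 in healthy cows. The lowest healthy mean was that of healthy cow 7, and the next was 2.10. Of 6 lymphocyte and plasma cell markers, GNLY and PTPRC fell and CD79B rose, and the mean ran from -0.62 to 0.028 in ketotic cows and from -0.44 to 0.081 in healthy cows. For hepatocytes 2 of 16 markers, ALB and APOA1, rose, with the mean from 5.66 to 6.75 in ketotic cows and from 3.51 to 7.02 in healthy cows. Healthy cow 7 again had the lowest healthy mean, and the next was 5.39. KRT8 among 6 bile duct markers fell, MMP9 among 4 neutrophil markers rose, and none passed among 2 erythroid, 9 stellate cell and fibroblast and 6 endothelial markers. Without healthy cow 7, 4 of 8 macrophage, 2 of 5 bile duct and 1 of 9 stellate cell and fibroblast markers fell. Of 16 hepatocyte markers 2 then rose and 1 fell, and none of 3 neutrophil markers passed, with MMP9 not tested. The counts of the other lists stayed the same. In that fit 1265 of all 6878 genes fell and 103 rose. The part of these marker differences in those of the cell cycle and replication genes was not tested.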

How the data were processed

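Each array was deposited as log2 ratios of its dye channels by spot, a scale read from the values; for the authors' scanning, normalisation and filters, the sources used here give nothing. Values at the ceiling of 16.61 (6245) and empty cells (103458) were read as not measured. Ratios were turned to liver over reference by the dye in the titles, the spots of a probe were averaged, each array was centred on its probe median, and a cow needed both arrays. Probes were named by the platform annotation: 8645 had 1 gene symbol, 105 several and 5074 none. Probes of a gene were averaged. Genes with values in at least 5 cows per group were tested with limma 3.58.1 in R 4.3.3 (lmFit and eBayes, two-sided, Benjamini-Hochberg over 6958 genes). The code was checked on simulated data. Cows carry no label that pairs them across groups, and no batch was labelled. The number of cows limits the precision, and dim spots could not be filtered since no intensities were used. cDNA spots can also bind related sequences, which was not tested.

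The genes and all lists were chosen with earlier results of these data known. Named were all cell cycle and replication genes that passed, PCNA, TYMS, TOP2A, RRM1 and RRM2, the 2 widest differences in each role, and at most 4 passing genes with the smallest p in each list; other genes are given by difference or range. CDC20 and the AURK, BUB, CENP and CDC25 genes were counted under mitosis. The alternatives were other scalings (values as deposited, centring on probes measured on all arrays, equal spread, quantile), each dye alone, other handling of missing values, ceilings and zeros, other limma settings, a term for the percentage of empty spots, and leaving out each cow. Centring each cow on its median gene was chosen after seeing the data.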

Additional observations from a re-analysis of the deposited data

Results flagged for a closer look

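In the 164 sets of 7 or fewer cow values searched (each tested gene in each group), 23 had a highest or lowest cow far from the others by Dixon's test; chance gives about 1 in 20 such sets. Of the 23, 13 belonged to healthy cow 7, the cow that correlated least with its group. All values are log2 ratios of liver over reference.

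Healthy cow 7 was the highest healthy cow for BUB1B (-0.70, next -3.22), CDC45 (0.027), CDKN1A (0.71), CENPB (0.61), CENPT (0.997, next -2.21), LIG1 (1.35), MCM4 (0.98, next -1.88), RFC2 (0.37, next -1.51), RRM2 (-1.02, next -3.64) and TYMS (-0.82, next -2.98). It was the lowest for AURKB (-2.47), CCNG1 (-1.79, next -0.51) and CENPF (-2.54, next -0.82). Healthy cow 6 was lowest for CCND3 (-1.19) and CDC5L (-1.96).

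Among ketotic cows, cow 5, with the largest share of empty spots, was the highest for CDK1 (-1.20, next -3.29) and the lowest for RFC1 (-1.27) and RRM1 (-2.70). Ketotic cow 1 was highest for CDC34 (1.79), cow 6 for CDKN1A (0.51) and cow 3 for RPA3 (-1.75, next -2.63). Ketotic cow 7 was lowest for CCNL2 (-0.72) and cow 2 for MCM5 (0.26).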

How the results depend on the processing

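The counts moved with the scaling, the dye used and the covariate. With the values as deposited, 2477 genes and 25 cell cycle and replication genes passed (0 higher, 25 lower; all genes 11 higher, 2466 lower), with medians of -0.58 over all genes and -0.60 over the set. Relative to the median gene, 501 genes (181 higher, 320 lower) and 8 of the set (4 higher, 4 lower) passed, and the set's median was -0.011. Centring on shared probes gave 616 genes (123 higher, 493 lower) and, in the set, 3 higher and 7 lower. Equal spread gave 550 genes and 5 of the set, and quantile normalisation 562 and 5. The medians were -0.026 over the set and -0.16 over all genes with equal spread, and -0.10 and -0.18 with quantile normalisation. Liver in Cy5 alone gave 12 of 7633 genes and 1 of 93 of the set (RPA3). Liver in Cy3 alone gave 690 of 7432 genes and 6 of 89 of the set. The covariate of empty spots gave 168 genes and 4 of the set, and array weights 1435 genes and 16 of the set. Leaving out each cow in turn gave 7 to 14 of the set and 652 to 1368 of all genes. CDKN3, at -0.048 as reported, was 0.91 (adjusted p = 0.0401 by limma) when 1 array was enough for a cow. That setting averaged in a second CDKN3 probe, which the reported value leaves out. This probe had a value on both arrays in only 2 ketotic and 2 healthy cows. Over single genes of the set and alternatives, 2181 results kept their sign and side of the threshold, 88 lost the call, 36 gained it and 1 (CDKN3) passed with the opposite sign. Another 189 changed sign and passed in neither fit. The causes were not tested. No paired analysis was possible because no label pairs cows across the groups.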
